A study of Oryzias latipes with 6 samples.

Results

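The effect of constitutively active XBP1 on the medaka heart was measured over both AXER genotypes together. It compares 12 libraries of hearts with the active XBP1(S) allele with 12 libraries of hearts without it, 24 of the 36 libraries sequenced, and the AXER genotype entered the model as a block. Hearts were taken at 5 days post-fertilization (dpf) and 6 libraries were made for each genotype. The groups were [KO + XBP1(S)] (AXER-/- XBP1 SC/+), [WT + XBP1(S)] (AXER+/+ XBP1 SC/+), AXER-KO (AXER-/-, both XBP1 alleles normal) and WT (AXER+/+, both XBP1 alleles normal). In 2 further genotypes, [KO + ATF6α(N)] and [WT + ATF6α(N)], 1 ATF6α allele encodes the active fragment of that factor, and their 12 libraries served as a second reference. AXER-/- medaka carry a frameshifting deletion of 2 bases in exon 1, made with TALEN and kept as 1 line. In XBP1 SC/+ medaka 1 XBP1 allele was edited at its own locus to lack the intron that IRE1 removes, so it encodes XBP1(S) in all tissues that express the gene, not in the heart alone, and the second allele is normal.

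XBP1 is a transcription factor of the unfolded protein response, the programme by which cells answer an overload of misfolded protein in the endoplasmic reticulum (ER). The ER sensor IRE1 removes an intron from XBP1 mRNA in the cytosol, and the spliced mRNA encodes the active factor XBP1(S), which is known to raise genes for ER chaperones, for degradation of misfolded ER proteins and for secretory traffic. AXER brings ATP into the ER, where chaperones need it, so its loss disturbs folding there. ATF6α, the other factor, is cut in the Golgi under ER stress and its nuclear fragment, ATF6α(N), acts on a partly shared set of genes.

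The files give salmon's estimated read count for each of 37495 medaka transcripts in each library. They total 1850805 to 4728592 reads per library in [KO + XBP1(S)] hearts and 2396096 to 11027825 in [WT + XBP1(S)] hearts, against 3067532 to 19619140 in AXER-KO hearts and 2524357 to 11139745 in WT hearts. Total reads, the share of the 10 most abundant transcripts, the number of transcripts detected at equal depth and the normalization factor gave permutation p-values (two-sided, 100000 resamples within AXER genotype, 4 measures) between 0.203 and 0.877 for hearts with against hearts without XBP1(S), with adjusted p of at least 0.81. Libraries are called replicates 1 to 6 by their column in the files, and these numbers pair nothing. The origin of the 6 libraries of 1 genotype (separate animals, pools or repeated preparations) is not stated, and the p-values below cover only how far such libraries vary, which can be technical. No identifier (0 of 37495) matched the gene table used here. The transcripts of XBP1, AXER and ATF6α, the known XBP1 target genes and the markers of heart muscle and of blood were therefore not analysed here, and the labels were not checked against them. Fish red blood cells keep their nuclei and their RNA is part of these samples. In bulk RNA, fewer cells of a type and less RNA per cell cannot be told apart.

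With AXER genotype as a block, 84 of 16250 tested transcripts were higher with XBP1(S) than without it and 0 were lower (fold change above 1.5 with an adjusted p under 0.05, edgeR's quasi-likelihood test). The rises are 0.517% of the transcripts tested. Their log2 fold changes ran from 0.59 to 1.93 with a median of 0.89, against a median of -0.0068 over all tested transcripts, of which 48.9% had a positive value. The standard error of a rise was 0.14 on the log2 scale at the median (0.091 to 0.40). A log2 fold change of at least 1 was reached by 26 of the 84. The adjusted p was under 0.01 for 73 of them and under 0.001 for 48. Outside the 84, 11 other rises passed the adjusted p with a fold change of 1.5 or less and log2 values of 0.36 to 0.58.

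**Figure D1:**
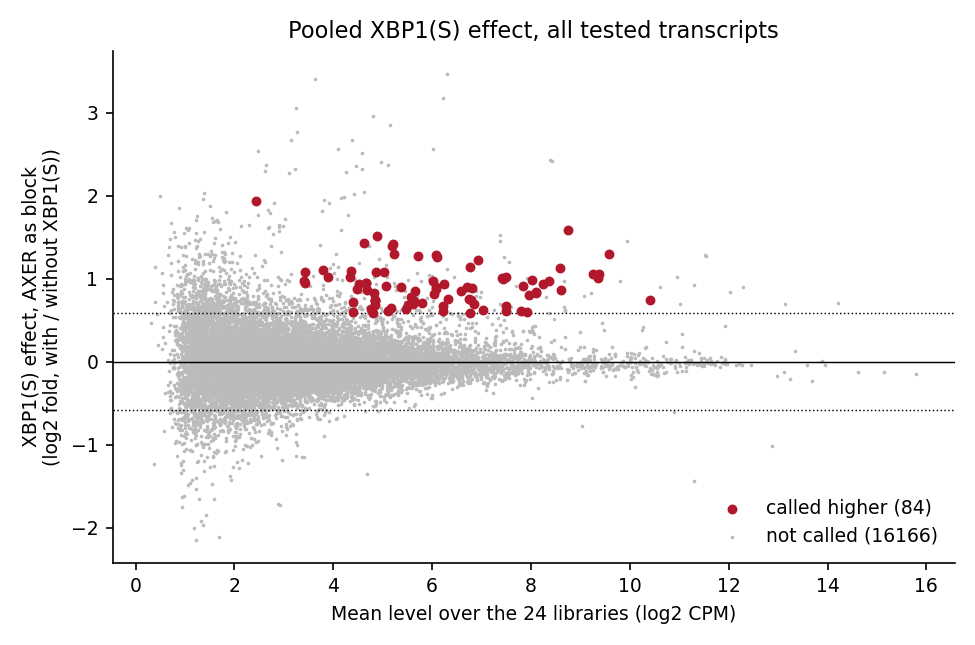
Log2 fold change with XBP1(S) against without it (vertical axis) by mean level over 24 libraries in log2 CPM (horizontal axis) for every tested transcript, with dotted lines at a fold change of 1.5 in either direction. The 84 called transcripts (red) all lie above the upper dotted line, between 0.59 and 1.93, and the other 16166 (grey) were not called.

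Few transcripts were lower with XBP1(S). At an unadjusted p under 0.05, 404 transcripts were lower and 661 were higher, together 1065 where 812.5 would make up a share of 5%. At p under 0.001 the numbers were 9 lower and 124 higher. A single lower transcript passed the adjusted p, with a fold change below the threshold. It was at 31.7 ± 5.68 CPM (counts scaled to a common library total; SD, n = 6) in [KO + XBP1(S)] hearts and 24.9 ± 6.31 CPM in [WT + XBP1(S)] hearts, against 52.4 ± 14.3 CPM in AXER-KO hearts and 33.9 ± 7.05 CPM in WT hearts (log2 fold change -0.57, standard error 0.14, adjusted p = 0.0419 from edgeR). The number of lower calls was 1 with limma-voom and 7 with DESeq2, where 587 and 418 transcripts were lower at an unadjusted p under 0.05.

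The 84 transcripts were mostly well expressed. Their mean level had a median of 78.8 CPM with XBP1(S) (8.30 to 1700) and 41.5 CPM without it (2.21 to 1054), while the median over all tested transcripts was 9.37 CPM without it. Of the 84, 27.4% were at 100 CPM or more without XBP1(S), against 6.07% of all tested, and 7.14% were under 10 CPM, against 52.0%. The power of the test grows with the level, and how much of this difference comes from it was not tested. Split by that level into groups of 28, the median log2 fold changes were 0.96 in the lowest (2.21 to 22.3 CPM), 0.84 in the middle (22.3 to 77.1 CPM) and 0.87 in the highest (80.1 to 1054 CPM).

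Summed, the 84 transcripts took 1.61 ± 0.103% of all reads in [KO + XBP1(S)] hearts (SD, n = 6, 1.46 to 1.70) and 1.35 ± 0.0913% in [WT + XBP1(S)] hearts (1.18 to 1.44). They took 0.956 ± 0.0447% in AXER-KO hearts (0.880 to 1.00) and 0.645 ± 0.0254% in WT hearts (0.613 to 0.688). The libraries with XBP1(S) did not overlap those without it in either AXER genotype. Since these transcripts were chosen for being higher with XBP1(S), the sums describe their size and test nothing.

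Libraries of the 2 states were also compared one by one. Every [KO + XBP1(S)] library was above every AXER-KO library for 34 of the 84 transcripts, where 0.369% of all tested were so placed. Every [WT + XBP1(S)] library was above every WT library for 68, against 0.652% of all tested. Both held for 30, against 0.191% of all tested, and 0 transcripts (0%) had the opposite order in both. These counts come from the values that chose the 84 and describe them.

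The transcript with the largest rise among those with no overlap in either genotype was ENSORLT00000019560.2. It was at 513 to 715 CPM in [KO + XBP1(S)] hearts (median 615), against 244 to 395 CPM in AXER-KO hearts (median 275). It was at 509 to 848 CPM in [WT + XBP1(S)] hearts (median 636), against 110.1 to 225 CPM in WT hearts (median 162). The lowest of the 12 libraries with XBP1(S) was above the highest of the 12 without it. The pooled log2 fold change was 1.58 (standard error 0.15, adjusted p = 1.58e-07 from edgeR), with 1.10 in AXER-/- hearts (adjusted p = 0.00369) and 2.07 in AXER+/+ hearts (adjusted p = 5.22e-09). Its estimates were not whole numbers in 5 of the 24 libraries, so some of its reads were shared out between transcripts.

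ENSORLT00000023420.2 came next and had whole estimates in every library. It was at 32.1 to 77.8 CPM in [KO + XBP1(S)] hearts (median 44.6), against 12.9 to 28.0 CPM in AXER-KO hearts (median 22.2). It was at 30.9 to 49.5 CPM in [WT + XBP1(S)] hearts (median 39.0), against 6.16 to 13.7 CPM in WT hearts (median 11.99). Again no library with XBP1(S) reached down to one without it, which within each AXER genotype follows from how the transcript was chosen. The pooled log2 fold change was 1.51 (standard error 0.17, adjusted p = 1.09e-06), with 1.198 in AXER-/- hearts (adjusted p = 0.0127) and 1.84 in AXER+/+ hearts (adjusted p = 1.04e-05, all from edgeR).

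**Figure D2:**
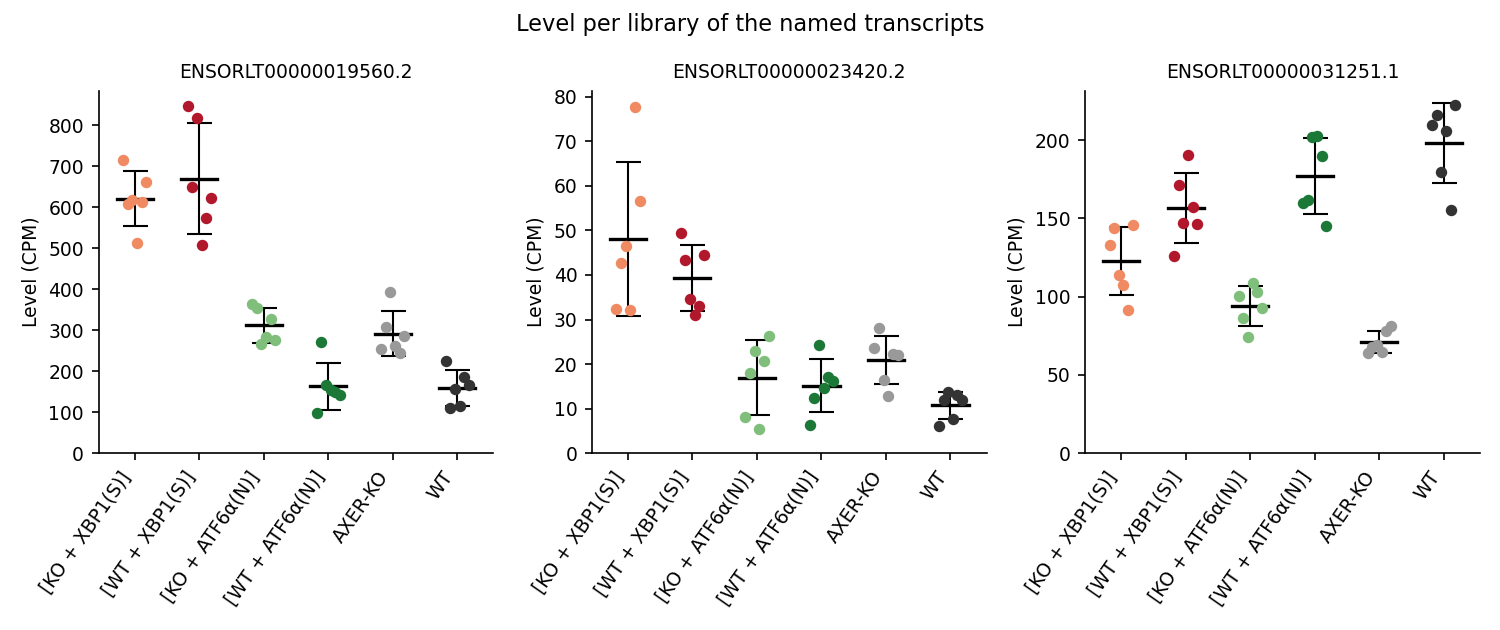
Level in CPM (vertical axis, from 0) of 3 transcripts in each of the 6 libraries of 6 genotypes (points), with the mean (bar) and SD (whiskers). For ENSORLT00000019560.2 and ENSORLT00000023420.2, chosen for no overlap within each AXER genotype, the 12 libraries with XBP1(S) stand above the 12 without an active allele. For ENSORLT00000031251.1 AXER-KO hearts have the lowest mean (64.2 to 81.5 CPM).

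Further large rises are described without their identifiers, picked for their levels after the values were seen. The eighth by fold change was at 916 to 1177 CPM in [KO + XBP1(S)] hearts and 820 to 1747 CPM in [WT + XBP1(S)] hearts, against 462 to 813 CPM in AXER-KO hearts and 279 to 466 CPM in WT hearts (log2 fold change 1.29, adjusted p = 1.09e-06 from edgeR). The ninth was at 76.2 to 107.4 CPM in [KO + XBP1(S)] hearts and 70.8 to 118 CPM in [WT + XBP1(S)] hearts, against 44.3 to 66.3 CPM in AXER-KO hearts and 25.7 to 32.6 CPM in WT hearts (log2 fold change 1.28, adjusted p = 1.58e-07). In both, the AXER-KO libraries lay above most or all WT libraries, whereas the ranges with XBP1(S) overlapped between AXER genotypes.

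The largest fold change belonged to a scarce transcript. It was at 4.19 to 30.9 CPM in [KO + XBP1(S)] hearts (median 5.96) and 3.98 to 8.11 CPM in [WT + XBP1(S)] hearts (median 5.75), against 0.879 to 5.17 CPM in AXER-KO hearts (median 3.63) and 0 to 2.58 CPM in WT hearts (median 1.14). Its log2 fold change of 1.93 had the largest standard error of the 84, 0.40, and 1 library held the highest value of 30.9 CPM. The most abundant of the 84 was 61st by fold change. It was at 1638 to 2147 CPM in [KO + XBP1(S)] hearts and 1142 to 2292 CPM in [WT + XBP1(S)] hearts, against 1054 to 1793 CPM in AXER-KO hearts and 652 to 990 CPM in WT hearts (log2 fold change 0.74, adjusted p = 0.000936 from edgeR).

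In none of the 84 did 1 library hold most of the signal. The highest of the 12 XBP1(S) libraries held 11.8% of a transcript's summed CPM at the median and at most 31.0%, where an even share is 8.33%. Among 210 other transcripts with a log2 fold change of at least 1 that were not called, the median was 30.1%, and in 52 of them 1 library held more than 50% (up to 95.01%). Of these uncalled transcripts, 32 had a larger fold change than any of the 84. A high value in 1 library widens the spread and so counts against a call. The contrast is thus tied to the calling itself and is a description. The highest library was [WT + XBP1(S)] replicate 3 for 26 of the 84 and [KO + XBP1(S)] replicate 5 for 19. Those libraries also correlated least with the others of their genotype. Without [WT + XBP1(S)] replicate 3 alone, 82 transcripts rose and 1 fell, and 76 of the 84 remained called. Without [KO + XBP1(S)] replicate 5 alone, 81 rose and 1 fell, and 78 of the 84 remained called. Without both of these, AXER-KO replicate 6 and WT replicate 1, the least correlated library of each genotype, 73 transcripts rose and 1 fell. There 70 of the 84 remained called.

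The XBP1(S) effect was then estimated within each AXER genotype. Within AXER-/- hearts, XBP1(S) raised 19 transcripts of all tested (0.117%) and lowered 3 (0.0185%). Within AXER+/+ hearts it raised 94 (0.578%) and lowered 3 (0.0185%). For AXER-/- hearts the study reported many more changes with XBP1(S) at the same thresholds, in both directions. It counted genes and names no tool for the test, and the reason for the difference was not tested. Of the 84, 16 were called in AXER-/- hearts and 75 in AXER+/+ hearts. All 16 were also called in AXER+/+ hearts, 59 were called in AXER+/+ hearts alone and 9 in neither. The 84 had a median log2 fold change of 0.60 in AXER-/- hearts (0.16 to 1.73) and 1.18 in AXER+/+ hearts (0.50 to 2.16). All 84 were positive in both. At an unadjusted p under 0.05, 76 were higher in AXER-/- hearts, against 3.45% of all tested, and 84 in AXER+/+ hearts, against 4.34%. The pooled effect that chose the 84 uses these same libraries, so these signs and counts describe the 84 and test nothing. A call in one genotype and not in the other does not show a difference, which the interaction tests.

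**Figure D3:**
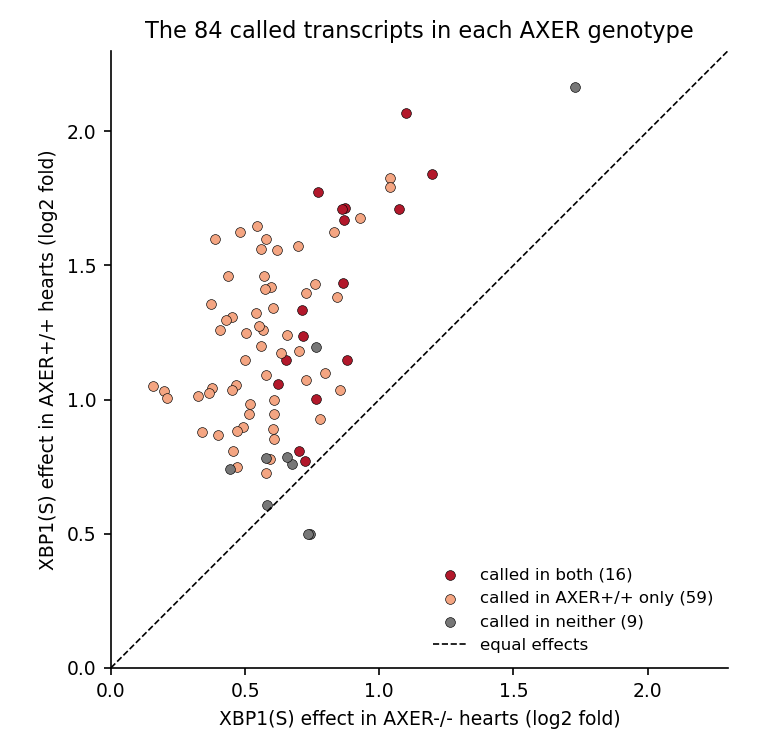
Log2 fold change with XBP1(S) in AXER-/- hearts (horizontal axis) and in AXER+/+ hearts (vertical axis) for each of the 84 called transcripts, coloured by the genotypes in which they were called. Points above the dashed line of equal effects had the smaller estimate in AXER-/- hearts, which was so for 82 of the 84. No interaction of the 84 was called in edgeR fitted to the 24 libraries.

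The interaction, the effect in AXER-/- minus that in AXER+/+ hearts, was below 0 for 82 of the 84 transcripts and above 0 for 2. Its median was -0.61 on the log2 scale (-1.21 to 0.24), against -0.028 over all tested, of which 52.3% were below 0. No interaction of the 84 passed the adjusted p in edgeR fitted to the 24 libraries (smallest 0.102). There 51 of them (60.7%) were below 0 at an unadjusted p under 0.05, against 3.59% of all tested. The 84 were chosen in these same libraries and share them, so their interactions are not independent of each other. With DESeq2 7 of the 84 were called for the interaction, and 20 of all tested. With limma-voom 0 of the 84 were called, and 1 of all tested. With edgeR fitted to all 36 libraries 2 of the 84 were called, and 4 of all tested. For ENSORLT00000019560.2 the interaction was -0.97 (standard error 0.24, adjusted p = 0.322 from edgeR) and for ENSORLT00000023420.2 it was -0.64 (standard error 0.32, adjusted p = 0.782). The [KO + XBP1(S)] libraries were the shallowest, with a median of 2477696 reads, against 5579628 in [WT + XBP1(S)], 5587767 in AXER-KO and 4013868 in WT hearts. With all libraries thinned to 1 total, 77 of the 84 had an interaction below 0, with library size as a covariate 78 had, and under the other 7 alternatives 82 had.

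The 2 transcripts with an interaction above 0 were 76th and 77th by fold change. The first was at 124.6 to 258 CPM in [KO + XBP1(S)] hearts and 135 to 209.7 CPM in [WT + XBP1(S)] hearts, against 87.1 to 111 CPM in AXER-KO hearts and 78.2 to 164 CPM in WT hearts. The second was at 60.5 to 86.8 CPM in [KO + XBP1(S)] hearts and 81.0 to 169 CPM in [WT + XBP1(S)] hearts, against 25.2 to 60.2 CPM in AXER-KO hearts and 58.9 to 91.7 CPM in WT hearts. For both, the libraries with and without XBP1(S) were apart in AXER-/- hearts and overlapped in AXER+/+ hearts, with interactions of 0.24 (adjusted p = 0.913) and 0.23 (adjusted p = 0.934, both from edgeR).

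The same 4 means can be read along the AXER genotype. Without an active allele, AXER-KO hearts were above WT hearts for 81 of the 84 transcripts, with a median log2 fold change of 0.61, and 30 of them were called higher, against 0.443% of all tested, and 1 lower, against 0.185%. With XBP1(S), [KO + XBP1(S)] hearts were above [WT + XBP1(S)] hearts for 54 of the 84, with a median of 0.079. There 3 were called higher, against 0.0985% of all tested, and 0 lower, against 0.0308%. The 30 transcripts called higher in AXER-KO hearts had median XBP1(S) effects of 0.59 in AXER-/- hearts and 1.24 in AXER+/+ hearts, and all 30 had an interaction below 0. The other 54 had medians of 0.61 in AXER-/- hearts and 1.06 in AXER+/+ hearts, and 52 of them had an interaction below 0. These comparisons share their libraries with the effect that chose the 84, and they are given side by side as levels and not as separate evidence. The AXER difference without an active allele is also a term of the interaction. Transcripts called higher in AXER-KO hearts thus tend to an interaction below 0 by that choice itself.

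Mean log2 CPM over the 84 transcripts gives their level in each genotype. It was 6.51 ± 0.11 in [KO + XBP1(S)] hearts (SD over 6 libraries, 6.37 to 6.64) and 6.41 ± 0.22 in [WT + XBP1(S)] hearts (6.13 to 6.68), which overlapped. It was 5.89 ± 0.14 in AXER-KO hearts (5.71 to 6.08) and 5.21 ± 0.11 in WT hearts (5.04 to 5.37), which did not overlap with each other or with the libraries with XBP1(S). The 84 were chosen for being higher with XBP1(S) in these libraries, so the gap between libraries with and without it comes with the choice.

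**Figure D4:**
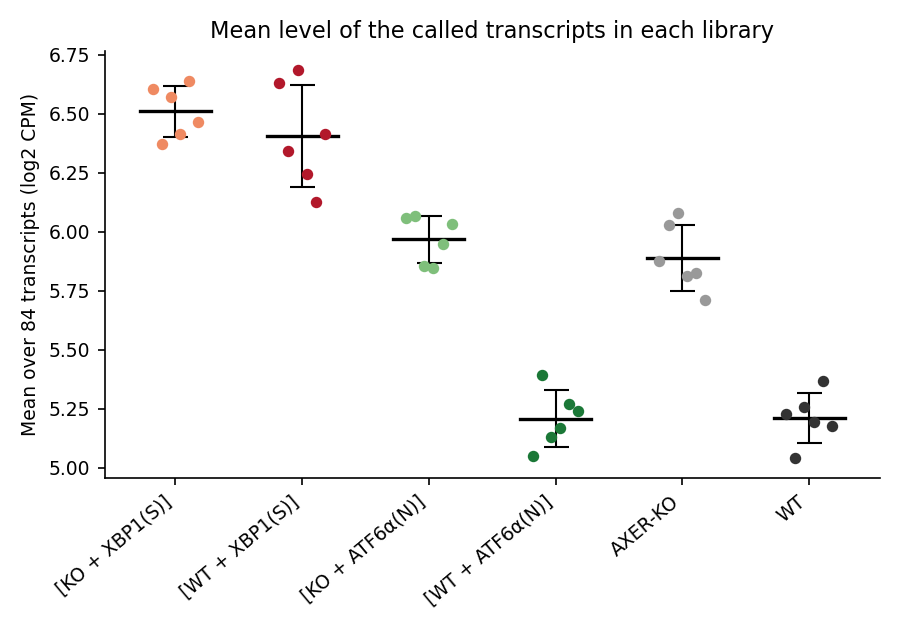
Mean log2 CPM of the 84 called transcripts in each library (points) of 6 genotypes, with the mean (bar) and SD (whiskers); the vertical axis does not start at 0. Both genotypes with XBP1(S) lie between 6.13 and 6.68, AXER-KO and [KO + ATF6α(N)] hearts between 5.71 and 6.08, and WT and [WT + ATF6α(N)] hearts between 5.04 and 5.39. The 84 were chosen for being higher with XBP1(S) than without an active allele in these libraries.

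Values of the 3 transcripts called higher with AXER loss when XBP1(S) was present are given for the genotypes with and without XBP1(S). The first, 81st by fold change, was at 298 to 527 CPM in [KO + XBP1(S)] hearts and 108 to 161 CPM in [WT + XBP1(S)] hearts, against 327 to 437 CPM in AXER-KO hearts and 58.6 to 82.4 CPM in WT hearts. Its XBP1(S) effect was 0.21 in AXER-/- hearts (adjusted p = 0.833) and 1.01 in AXER+/+ hearts (adjusted p = 2.88e-05, both from edgeR). The second, 79th, moved alike, with 277 to 464 CPM in [KO + XBP1(S)] hearts and 98.5 to 146 CPM in [WT + XBP1(S)] hearts, against 304 to 386 CPM in AXER-KO hearts and 49.0 to 69.2 CPM in WT hearts. The third, 49th, was at 124 to 224 CPM in [KO + XBP1(S)] hearts and 52.4 to 80.4 CPM in [WT + XBP1(S)] hearts, against 106.8 to 164 CPM in AXER-KO hearts and 17.7 to 32.0 CPM in WT hearts. The XBP1(S) effects of the second were 0.20 in AXER-/- hearts (adjusted p = 0.857) and 1.03 in AXER+/+ hearts (adjusted p = 1.88e-05), and those of the third were 0.37 (adjusted p = 0.652) in AXER-/- hearts and 1.35 (adjusted p = 4.36e-06) in AXER+/+ hearts, all from edgeR. In each of the 3 the [KO + XBP1(S)] and AXER-KO ranges overlapped, as they did for most of the 84. The only transcript of the 84 called lower in AXER-KO hearts was the 77th, described above, with a log2 fold change of -0.81 (adjusted p = 0.0364).

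Transcripts chosen in one AXER genotype were then read in the other, which shares no library with it. Normalization and the spread were estimated over all 24 libraries. The 94 transcripts raised in AXER+/+ hearts had a median log2 fold change of 0.56 in AXER-/- hearts, against 1.14 in AXER+/+ hearts, where the choice itself favours large values. In AXER-/- hearts 92 of them were positive (97.9%, against 49.0% of all tested) and 69 were higher at an unadjusted p under 0.05 (73.4%, against 3.45% of all tested). The 19 transcripts raised in AXER-/- hearts had a median of 0.80 there and of 1.24 in AXER+/+ hearts. In AXER+/+ hearts 17 of them were positive (89.5%, against 50.4% of all tested). There 16 were higher at an unadjusted p under 0.05 (84.2%, against 4.34% of all tested). The difference between the medians in the 2 genotypes was not tested. Of the 94 transcripts 75 were among the 84, and of the 19 transcripts 16 were. Of the 3 transcripts lowered in AXER-/- hearts, 3 were negative in AXER+/+ hearts, and of the 3 lowered in AXER+/+ hearts, 2 were negative in AXER-/- hearts, with 0 at p under 0.05 in either reading.

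One transcript of all tested was called for the interaction (0.00615%), and it was not among the 84. It is named because it is the only one, so it was chosen after its values were seen. ENSORLT00000031251.1 was at 91.6 to 146 CPM in [KO + XBP1(S)] hearts (median 124), against 64.2 to 81.5 CPM in AXER-KO hearts (median 68.7). It was at 126 to 190.5 CPM in [WT + XBP1(S)] hearts (median 152), against 155 to 222 CPM in WT hearts (median 208). XBP1(S) raised it in AXER-/- hearts, with a log2 fold change of 0.80 (adjusted p = 0.00508), and in AXER+/+ hearts the value was -0.34 (adjusted p = 0.569). The interaction was 1.14 (standard error 0.19, adjusted p = 0.0309), and the pooled value was 0.22 (adjusted p = 0.878, all from edgeR). Without an active allele it was lower in AXER-KO than in WT hearts, by a log2 fold change of -1.49 (adjusted p = 2.43e-08), and with XBP1(S) the AXER difference was -0.35 (adjusted p = 0.373). With ATF6α(N) it was at 74.1 to 108 CPM in AXER-/- hearts (median 96.4) and 145 to 203 CPM in AXER+/+ hearts (median 176). Pooled over AXER genotypes, XBP1(S) minus ATF6α(N) was 0.10 (standard error 0.11, adjusted p = 0.956 from edgeR). An interaction of ATF6α(N) with AXER was not tested. Leaving out any 1 of 15 libraries moved the adjusted p of the interaction to between 0.054 and 0.109, and these were [KO + XBP1(S)] replicates 1, 2, 3 and 6, [WT + XBP1(S)] replicates 1, 5 and 6, AXER-KO replicates 1, 2, 3 and 4 and WT replicates 1, 2, 4 and 6.

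No transcript was called for ATF6α(N). Pooled over AXER genotypes in the same way, ATF6α(N) raised 0 (0%) and lowered 0 of 17095 tested transcripts in edgeR, with 606 at an unadjusted p under 0.05, and no other tool was run on it. The 84 had a median log2 fold change of 0.036 with ATF6α(N) (-0.22 to 0.89), 50 were positive and 4 were higher at p under 0.05, against 1.81% of all tested. Those 4 included the 3 transcripts that stayed higher with AXER loss, and the smallest p of the 4 was 5.7e-05 (adjusted p = 0.277 from edgeR). This comparison shares its libraries without an active allele with that of XBP1(S). It covers the pooled effect alone, and 0 calls do not show that ATF6α(N) has no effect. The study reported genes altered by ATF6α(N) in AXER-/- hearts at the same thresholds, and higher ER chaperone genes with it in AXER+/+ hearts.

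Hearts with XBP1(S) were also compared with hearts with ATF6α(N), again with AXER as a block, which uses no library without an active allele. Of 16952 tested transcripts, 80 were higher with XBP1(S) (0.472%) and 1 was lower (0.0059%). Pooled over AXER genotypes, all 84 transcripts were higher with XBP1(S) than with ATF6α(N) in sign, and 67 of them were called. The median log2 difference was 0.83 and the lowest 0.26. Within AXER-/- hearts the 79th and 81st by fold change had the opposite order of means. They were at 378 and 415 CPM in [KO + XBP1(S)] hearts, against 458 and 493 CPM in [KO + ATF6α(N)] hearts. The difference within 1 AXER genotype was not tested. The XBP1(S) libraries are those that chose the 84, so only the second reference is new. For ENSORLT00000019560.2 the difference was 1.52 (standard error 0.16, adjusted p = 9.07e-07 from edgeR), with 267 to 365 CPM in [KO + ATF6α(N)] hearts and 97.1 to 271 CPM in [WT + ATF6α(N)] hearts. For ENSORLT00000023420.2 it was 1.43 (standard error 0.21, adjusted p = 8.53e-05 from edgeR), with 5.52 to 26.4 CPM in [KO + ATF6α(N)] hearts and 6.36 to 24.3 CPM in [WT + ATF6α(N)] hearts. Mean log2 CPM of the 84 was 5.97 ± 0.099 in [KO + ATF6α(N)] hearts and 5.21 ± 0.12 in [WT + ATF6α(N)] hearts (SD, n = 6), beside 5.89 in AXER-KO and 5.21 in WT hearts.

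Levels of the 84 transcripts were compared from library to library. The correlation of log2 CPM with ENSORLT00000019560.2 over the 24 libraries was above 0.9 for 19 of them and for 0 of the other tested transcripts. It ranged from 0.38 to 0.97 over the 84, with a median of 0.85. The 4 group means are shared by every point, and the 84 were chosen for a difference between them, so this is a description. There were 12 pairs among 18 of the transcripts with a correlation above 0.95 and levels within 1.2-fold of each other, and whether the members of a pair belong to 1 gene was not analysed here.

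Salmon's sharing of reads touched many of the 84. Estimates that were not whole numbers occurred in 59 of them (70.2%), against 33.0% of all tested transcripts. The share grew with the level: at 100 CPM or more without XBP1(S) it was 91.3% of the 84 and 89.0% of all tested, at 10 to 100 CPM it was 67.3% and 44.7%, and under 10 CPM it was 16.7% and 16.96%. When only transcripts with whole estimates were fitted, 10895 were tested and 19 were called, all of them among the 25 of the 84 with whole estimates. No transcript was paired with a gene, so numbers of transcripts here cannot be read as numbers of genes.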

How the data were processed

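RNA of whole hearts at 5 dpf was sequenced by Lasy-Seq after mRNA purification of the total RNA. The authors trimmed reads with fastp 0.21.0, mapped them with BWA 0.7.17-r1188 and deposited the estimated counts of salmon per transcript for 36 libraries. The study's methods name a mouse reference, GRCm38, whereas the identifiers are of medaka. The labels name the strain HdrR and the methods cab. Of the deposited values 1.88% were not whole (tolerance 1e-06), and all were rounded.

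Counts of 24 libraries were fitted with edgeR 4.0.16 in R 4.3.3: filterByExpr by genotype, TMM normalization and robust quasi-likelihood with terms for AXER and XBP1(S). Simple effects and the interaction came from the same model with an interaction term. Calls needed a Benjamini-Hochberg adjusted p under 0.05 over all tested transcripts and a fold change above 1.5. Standard errors are the log2 fold change over the square root of F. CPM use TMM over 36 libraries, and log2 CPM add 2 counts. Alternatives used limma-voom (limma 3.58.1), DESeq2 1.42.0 and other settings. The 2 largest rises with at least 1 CPM and no overlap of libraries in either AXER genotype are named, and gene lists and markers could not be used without gene names. The comparison, lists and tests were chosen with earlier results of these data known.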

Additional observations from a re-analysis of the deposited data

Results flagged for a closer look

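The XBP1(S) effect on ENSORLT00000031251.1 differed between AXER genotypes in the interaction test, by 1.14 on the log2 scale (adjusted p = 0.0309 from edgeR), with a rise in all 6 [KO + XBP1(S)] libraries above all 6 AXER-KO libraries. Over the alternatives its adjusted p ran from 1.21e-05 to 0.487. In 54 groups of 6 libraries (the 3 named transcripts, 5 library properties and the mean level of the 84 transcripts, in each genotype), 1 library stood far from the other 5 in 2 groups, where chance gives about 2.7. WT replicate 2 had 21526 transcripts detected at equal depth, against 20024 in the next library. WT replicate 3 had a median correlation of 0.905 with the other WT libraries, against 0.890 in the next.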

How the results depend on the processing

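The count of 84 rises was 76 to 89 when 1 library was left out and 67 to 120 under 12 of the 15 other alternatives. It was 12 in a test against a fold change of 1.5, 19 with whole estimates only (10895 tested) and 23 within AXER-/- hearts alone, where 12 libraries entered. All 84 remained called with median-of-ratios size factors, all 36 libraries and DESeq2. With adjusted p alone they remain called by how they were chosen. The 0 falls became 1 without a low-count filter, with library size as a covariate, without the least correlated libraries, with adjusted p alone, within AXER+/+ hearts and with limma-voom, 5 within AXER-/- hearts and with all 36 libraries, and 7 with DESeq2, and were 0 to 3 when 1 library was left out. The 1 interaction call became 0 without a filter, with library size as a covariate and at equal depth, 4 with all 36 libraries and 20 with DESeq2, and was 0 to 2 when 1 library was left out. The 80 transcripts higher with XBP1(S) than with ATF6α(N) were 72 to 87, and the 1 lower was 0 to 2, when 1 library was left out, while 91 were higher and 6 lower with all 36 libraries, and 114 higher and 8 lower with DESeq2. The log2 fold changes of ENSORLT00000019560.2 and ENSORLT00000023420.2 were at least 1.13 and 1.22, with adjusted p of at most 0.00121 and 0.0288. Scaling moved the median over all transcripts by under 0.05. Where causes of these changes are not given by the setting itself, the cause was not tested. The removal of the least correlated libraries and of the 10 most abundant transcripts was chosen after seeing the data. No paired analysis was possible because the labels give 1 sample per genotype and no replicate numbers, and the numbers used here are only the order of columns. The [KO + XBP1(S)] libraries had the lowest median of reads of the 6 genotypes, 2477696, and how far this limited the calls in AXER-/- hearts was not tested.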
